A study of Homo sapiens with 8 samples.

Results

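The lamins and the membrane proteins that anchor them were followed through 4 human renal carcinoma cell lines treated with A939572, an inhibitor of stearoyl-CoA desaturase 1. The set holds 8 genes of 19775 measured: the lamin genes LMNA, LMNB1 and LMNB2, the inner nuclear membrane genes LBR, TMPO and EMD, and the SUN-domain genes SUN1 and SUN2. They were chosen by name, with their treated and DMSO signals on these arrays already known, and their 20 probe sets are those that the platform annotation gives to a single member gene. Another probe set, shared by SUN1 and a neighbouring gene, was left out.

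The A939572 group held 4 arrays, 1 each of ACHN, CAKI2, A498 and CAKI1 cells kept for 24 h with 75 nM of the drug. The DMSO group held 4 arrays of the same lines given the solvent for 24 h. All are established lines described by the submitters as clear cell renal carcinoma, and all grew in the same serum-supplemented medium. Each array was set against its partner of the same line. The labels state no separate cultures within a line, so the lines are the replicates and an SD over them is the error given throughout.

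The nuclear lamina is a meshwork of intermediate filament proteins on the inner face of the nuclear envelope. B-type lamins, from LMNB1 and LMNB2, keep a farnesyl anchor in the membrane, while lamins A and C are splice forms of LMNA, and mature lamin A has lost that anchor. LBR and the LEM-domain proteins encoded by TMPO and EMD tie lamina and chromatin to the inner membrane, and SUN proteins join nesprins across the envelope to link the lamina with the cytoskeleton. Loss of lamin B1 is known as a mark of senescent cells, and LMNB1 and TMPO transcripts are known to vary with proliferation.

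The promoter stretches of LMNB1, TMPO and LBR are shown because these 3 genes had the lowest treated-to-DMSO differences of the set. Each is the 250 bases before a RefSeq transcript start in GRCh38.p14, 5′ to 3′ on the gene's own strand, and capitals mark a CCAAT box read on either strand.
LMNB1, chr5:126776886-126777135, plus strand: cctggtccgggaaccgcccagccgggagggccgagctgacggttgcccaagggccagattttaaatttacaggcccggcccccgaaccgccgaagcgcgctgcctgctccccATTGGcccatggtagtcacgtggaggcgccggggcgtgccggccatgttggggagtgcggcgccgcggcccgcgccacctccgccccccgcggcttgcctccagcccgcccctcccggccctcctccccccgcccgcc
TMPO, chr12:98515323-98515572, plus strand: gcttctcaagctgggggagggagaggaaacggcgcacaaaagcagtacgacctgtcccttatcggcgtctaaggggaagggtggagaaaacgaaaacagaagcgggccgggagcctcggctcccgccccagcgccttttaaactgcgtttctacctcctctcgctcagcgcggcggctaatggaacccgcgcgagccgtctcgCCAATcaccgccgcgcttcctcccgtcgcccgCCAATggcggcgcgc
LBR, chr1:225428822-225429071, minus strand: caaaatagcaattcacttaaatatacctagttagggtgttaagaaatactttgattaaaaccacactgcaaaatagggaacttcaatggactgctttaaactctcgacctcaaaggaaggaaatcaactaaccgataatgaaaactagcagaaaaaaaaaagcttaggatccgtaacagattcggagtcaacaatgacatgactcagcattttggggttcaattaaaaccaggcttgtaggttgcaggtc
The LMNB1 stretch holds the box on the reverse strand, with its first base 138 bases before the start. That of TMPO holds it on the forward strand at 47 and 15 bases before the start, and that of LBR does not hold it. The G and C share was 75.6% for LMNB1, 64.8% for TMPO and 36.8% for LBR. A second start of LMNB1, 5′ of the printed one, had a G and C share of 48.4% and no searched motif. RefSeq windows of 300 bases (250 before to 50 after a start) were found for 7 of the 8 members, 13 windows in all. CCAAT was in 6 of these 13 windows and in 34.61% of all 35116 windows of the table. The 6 windows belong to 5 of the 7 genes, as the TMPO windows overlap and hold the same boxes. The CHR element, searched as TTTGAA on both strands, was in 2 member windows (LMNB2 and SUN2) and in 15.16% of all windows. An E2F site written TTTCCCGC was in 1 member window, of LMNA, and in 1.63% of all. The form TTTGGCGC and the sterol element TCACNCCAC were in 0 of 13 member windows and in 0.65% and 1.13% of all. These matches are descriptions of letters in a window. The motifs do not overlap one another in the printed stretches.

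Arrays were alike in scale, with median signals of 68.6 to 84.2 units. Of the kidney epithelial and renal carcinoma markers measured, PAX8 had 4079 to 8278 units, KRT8 1373 to 5829, KRT18 6900 to 21788 and VIM 33034 to 44650. PAX2 ran from 40.3 to 712 units and was thus dim on some arrays. The summed signal of these 5 was 49788 to 66174 in treated arrays and 53516 to 70862 in DMSO arrays. The 3 leukocyte markers and the 4 fibroblast markers measured lay below the level filter, as did VWF and CDH5, while PECAM1 had 106 to 444 units. Summed leukocyte signals were 30.1 to 136 in treated arrays and 70.6 to 133 in DMSO arrays, and summed fibroblast signals 126 to 204 and 95.9 to 281. On the control probe sets of ACTB, the 3′ over 5′ ratio was 3.02 to 4.22 on treated arrays and 2.12 to 2.33 on DMSO arrays, higher in 4 of 4 lines. That of GAPDH was 1.01 to 1.11 on treated arrays and 0.962 to 1.05 on DMSO arrays. It was also higher in 4 of 4 lines, by a mean log2 difference of 0.08 ± 0.05, against 0.64 ± 0.25 for ACTB. Every value below was read from these arrays, and the part of these ratio differences in them was not tested. The arrays measure bulk RNA, so fewer cells with a transcript and less of it per cell cannot be told apart.

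LMNB1, the gene of lamin B1, had the lowest difference of the set. In its single probe set the treated arrays of ACHN, CAKI2, A498 and CAKI1 had signals of 299, 346, 349 and 340 units, against 1877, 1994, 1660 and 1887 units on the DMSO arrays of those lines. All 4 treated arrays lay far below all 4 DMSO arrays, and the lines differed little within either group. On the log2(signal + 16) scale, after quantile normalization, the differences of the lines, in the same order, were -2.55, -2.52, -2.24 and -2.36. The mean difference was -2.42 ± 0.14 (SD, n = 4 lines), which is 5.35-fold lower in treated cells. Of the 12093 genes bright enough to be tested, 1 had a lower mean difference, and its treated arrays lay below the level filter. The SD of LMNB1 was below the median SD of 0.31 over those genes. These values helped to choose the gene and are given without a test.

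**Figure D1:**
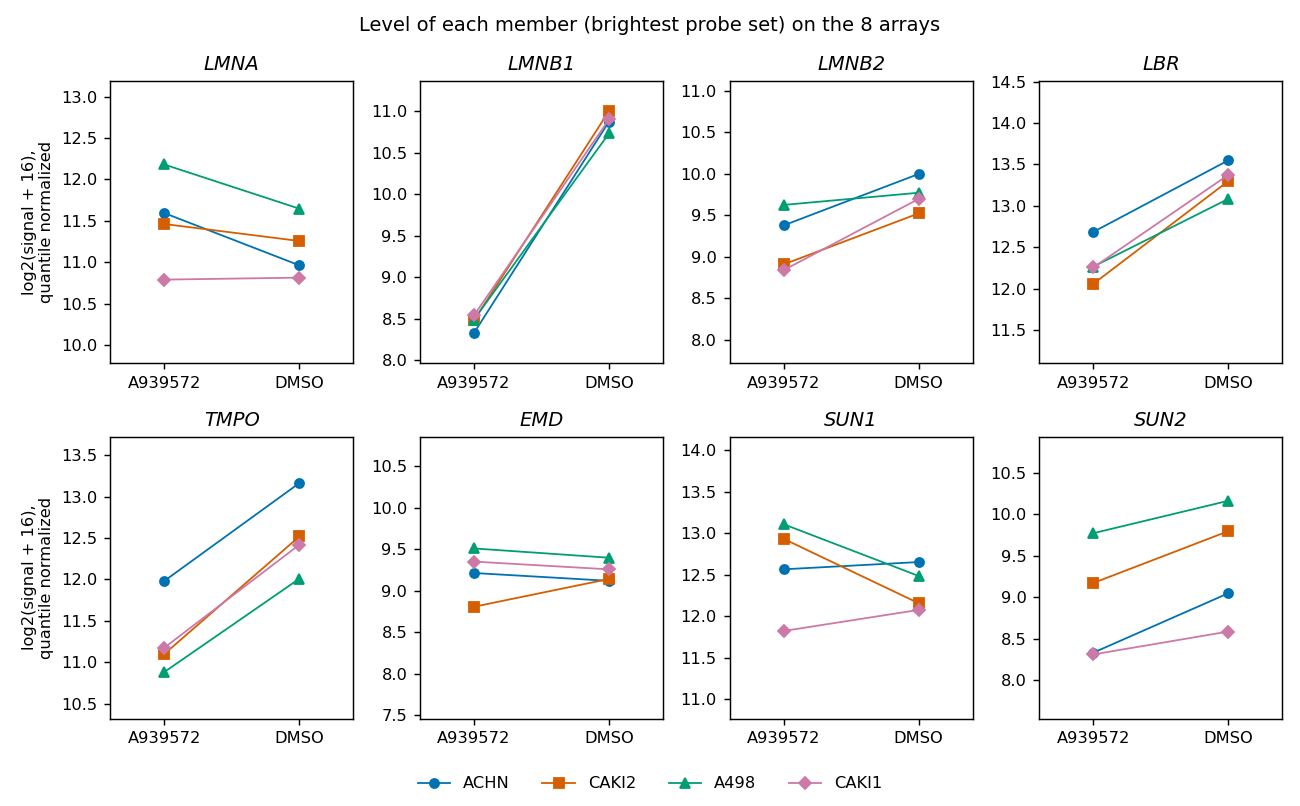
Level of each member in its brightest probe set, as quantile normalized log2(signal + 16), on the treated array (left) and the DMSO array (right) of each line; each line of points is 1 cell line and all panels span the same height. The 4 treated arrays of LMNB1 (8.33 to 8.54) sit below its DMSO arrays (10.73 to 11.00), while EMD and SUN1 overlap between the groups.

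LMNB2, the gene of the other B-type lamin, was lower by much less. Its signal was 648, 470, 785 and 428 units in treated ACHN, CAKI2, A498 and CAKI1, against 1012, 721, 863 and 783 in DMSO. It was lower in each line, but treated A498 lay above the DMSO array of CAKI2, so the groups overlap. The mean difference was -0.56 ± 0.30, with the nearest to 0 in A498 (-0.15) and the lowest in CAKI1 (-0.86).

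LMNA, which encodes lamins A and C, gave no single direction over its 6 probe sets. In the brightest, 212086_x_at, the signal was 3116, 2770, 4563 and 1770 units in treated ACHN, CAKI2, A498 and CAKI1, against 1996, 2399, 3143 and 1787 in DMSO. Treated cells were higher in 3 lines, with -0.02 in CAKI1 and a mean difference of 0.34 ± 0.30. The next brightest, 203411_s_at and 1554600_s_at, had -0.05 ± 0.23 and -0.03 ± 0.39. The probe set 212089_at was higher in 4 of 4 lines, with a difference of 0.28 ± 0.10. By contrast 214213_x_at had 181, 176, 191 and 134 units in treated cells against 300, 312, 356 and 290 in DMSO, and its groups did not overlap. Its difference was -0.81 ± 0.17, lower in 4 of 4 lines. The dimmest, 244225_x_at, lay below the level filter and had 0.03 ± 0.21. The direction of LMNA thus differed between probe sets, and their average gave -0.041. Without CAKI2 the brightest probe set becomes 203411_s_at, and the difference was -0.15.

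TMPO, which encodes the lamina-associated polypeptides 2, was lower with A939572 in every probe set above the filter. In the brightest, treated ACHN, CAKI2, A498 and CAKI1 had 4052, 2161, 1893 and 2334 units, against 9107, 5963, 3962 and 5654 in DMSO. As deposited, the treated signal of ACHN was just above the DMSO signal of A498. After quantile normalization all treated arrays lay below all DMSO arrays, and the mean difference was -1.24 ± 0.13, or 2.36-fold lower. The other 3 probe sets above the filter had -1.55 ± 0.42, -1.23 ± 0.61 and -0.97 ± 0.26. A498 was the line nearest to 0 in each of the 4, at -0.40 in 209754_s_at, where CAKI2 had -1.88. The fifth, 237863_at, had at most 21.6 units on any array and was not tested.

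LBR, the lamin B receptor, binds B-type lamins and heterochromatin protein 1 and is also a sterol C14-reductase. Its signal was 6539, 4258, 4829 and 4954 units in treated ACHN, CAKI2, A498 and CAKI1, against 12042, 10396, 8725 and 10909 in DMSO. The treated arrays all lay below the DMSO arrays. The differences were -0.86, -1.24, -0.82 and -1.12 in that order of lines, with a mean of -1.01 ± 0.20, or 2.01-fold lower.

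EMD, the gene of emerin, was level in the mean. Its signal was 575, 437, 727 and 618 units in treated ACHN, CAKI2, A498 and CAKI1, against 543, 551, 668 and 580 in DMSO. The mean difference was -0.01 ± 0.22. Treated cells were slightly higher in ACHN, A498 and CAKI1 (0.09 to 0.11) and lower in CAKI2 (-0.34).

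The SUN genes did not move alike. SUN1 had 5975, 7805, 8370 and 3685 units in treated ACHN, CAKI2, A498 and CAKI1, against 6314, 4625, 5632 and 4398 in DMSO, in its brightest probe set. It was higher in CAKI2 (0.78) and A498 (0.62) and lower in ACHN (-0.09) and CAKI1 (-0.25), with a mean of 0.26 ± 0.51. A second probe set, 206487_at, was higher in 4 of 4 lines (0.38 ± 0.26), and the dimmer 214169_at and 230210_at had -0.25 ± 0.23 and -0.17 ± 0.54. SUN2 had 300, 570, 875 and 287 units in treated ACHN, CAKI2, A498 and CAKI1, against 516, 876, 1115 and 358 in DMSO. It was lower in each line, with a difference of -0.50 ± 0.20, but the spread between lines was wider than this and the groups overlap.

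**Figure D2:**
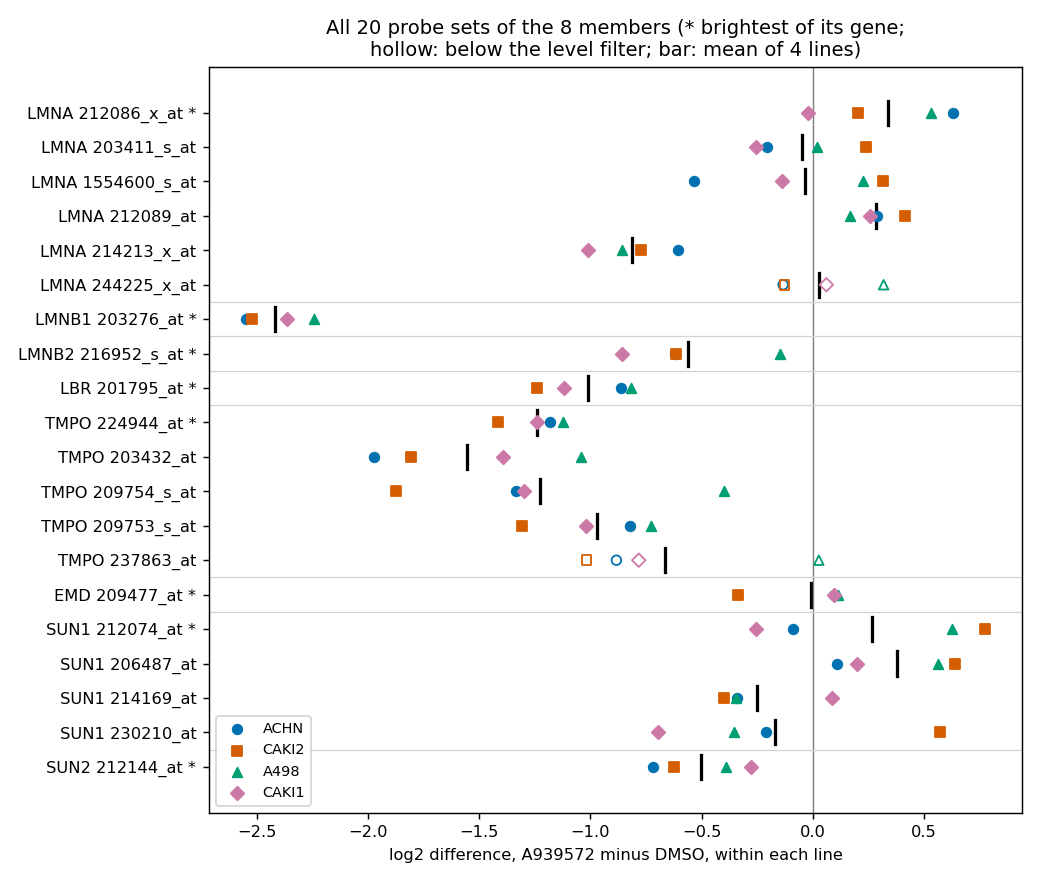
Log2 difference, A939572 minus DMSO, in each line (symbols) and its mean (bar) for the 20 probe sets of the 8 genes, with the brightest of each gene starred and those below the level filter hollow. LMNB1 stands alone at -2.42, the 4 bright TMPO probe sets run from -1.55 to -0.97, and the LMNA and SUN1 probe sets lie on both sides of 0.

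Over the brightest probe sets, 5 of the 8 genes were lower in all 4 lines (LMNB1, TMPO, LBR, LMNB2 and SUN2), against 25.3% of the 12093 genes. The other 3 had mixed signs, and none was higher in all 4, as 22.7% of genes were. Those 5 were also the members past the threshold of the fit over all genes (limma with the line as a block, Benjamini-Hochberg adjusted p under 0.05), where 15.9% of genes were lower, 14.7% higher and 30.6% either. No member passed as higher, a count of 0 that becomes 1 at an unadjusted p under 0.05 in limma. The treated arrays lay wholly below the DMSO arrays for 3 of the 8, LMNB1, TMPO and LBR, as they did for 4.94% of genes, and wholly above for none, against 4.63%. Of the 18 probe sets above the filter, 9 passed as lower and 9 did not pass, against 13.0% each way and 26.0% in all over 27307 probe sets. Since this contrast was known when the members were picked, nothing is read from these counts. The members' median difference was -0.53, and that of all genes tested was -0.03. The share of higher among called genes was 48.0%, and 58.3% where each array was centred on its median.

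**Figure D3:**
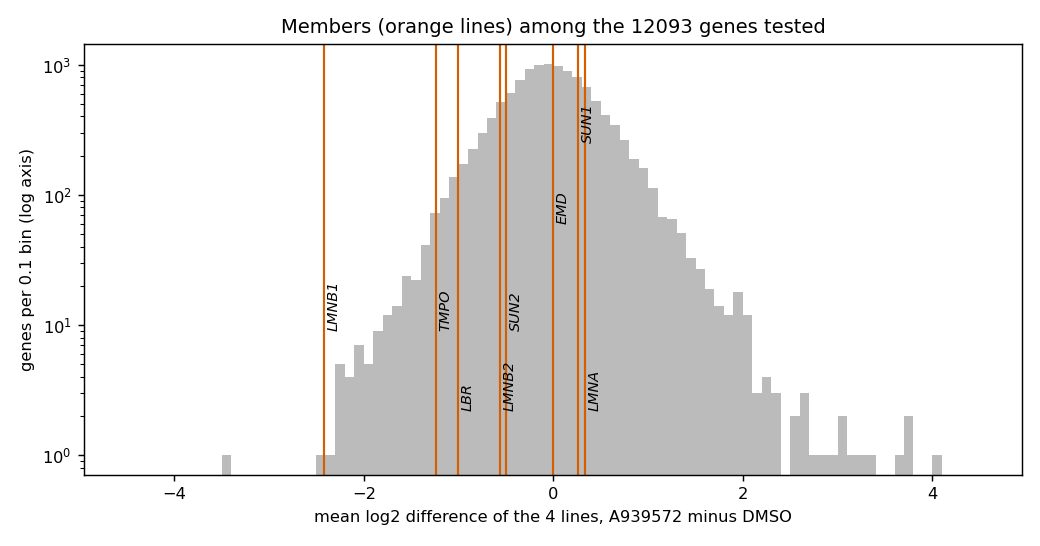
Histogram of the mean log2 differences of the 12093 genes tested, in bins of 0.1 with a log count axis, and the 8 members as orange lines. LMNB1 (-2.42) lies at the low end, TMPO (-1.24) and LBR (-1.01) in the low flank, and EMD (-0.01) at the centre.

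Across the lines the members differed in other ways than between treatments. LMNB1 had nearly the same level in the 4 DMSO arrays, with a range of 0.27 on the log2 scale, and in the 4 treated arrays, with 0.21. No neighbouring lines in its order by mean level (CAKI2, CAKI1, A498, ACHN) were apart, a line being called apart where both its arrays lay above both of the next. SUN2 had the widest range among brightest probe sets, 1.58 over DMSO arrays and 1.46 over treated arrays, in the order A498, CAKI2, ACHN, CAKI1 in both groups. Of these neighbours only CAKI2 and ACHN were apart, with both arrays of CAKI2 above both of ACHN. In its brightest probe set TMPO was highest in ACHN and lowest in A498 in both groups, with ranges of 1.10 in treated and 1.15 in DMSO arrays. The order differed in its other probe sets, A498 being the highest treated line in 203432_at. LBR was highest in ACHN in both groups. LMNA was highest in A498 in its 4 brightest probe sets, where both A498 arrays lay above those of the next line. The lower lines changed places between probe sets, CAKI1 being the lowest in 212086_x_at but next to A498 in 203411_s_at. EMD was highest in A498 and next highest in CAKI1, each apart from the line below it. SUN1 was lowest in CAKI1 in its brightest probe set, apart from the next line, and highest there in the dim 230210_at. LMNB2 had a range of 0.79 over treated and 0.48 over DMSO arrays, with all neighbouring lines overlapping.

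Across the 8 arrays the members fell into values that ran together and values that did not. LMNB1 correlated with LBR at r = 0.92, with TMPO at 0.82 and with LMNB2 at 0.71, and LBR with TMPO at 0.96. LMNA correlated with SUN1 at 0.78 and with LMNB1 at -0.40. Each r here uses the brightest probe set of a gene, which for LMNA is 212086_x_at. Other LMNA probe sets order the lines differently, and r was not computed for them. EMD had r = 0.01 with LMNB1. These are Pearson correlations over 8 arrays that share 4 lines and 2 treatments, and they describe these arrays only. Among the genes tested, those nearest to LMNB1 were KANK2 (r = 0.99), the effector caspase gene CASP6 (0.99), the mitochondrial channel gene VDAC3 (0.99), the noncoding transcript MIR181A2HG (0.98) and DNPH1 (0.98). LMNB1 differed mostly between treatments, so a high r with it mainly picks genes with an even step between the 2 groups. Their differences ran from -0.58 ± 0.12 for DNPH1 and -0.67 ± 0.09 for VDAC3 to -1.50 ± 0.08 for CASP6, -1.84 ± 0.28 for KANK2 and -3.44 ± 0.65 for MIR181A2HG. MIR181A2HG had 4.57 to 5.42 on treated arrays and 7.94 to 8.52 on DMSO arrays (log2 level). Its treated values lie below the filter of 6.41, so its difference depends on the offset of 16. GNG10 was nearest to TMPO (0.98) and next to MYD88 (0.99) nearest to LBR (0.98), and ECM1 was next for TMPO (0.98). SHROOM3 (0.98) and PNPLA3 (0.97) were nearest to LMNB2, NTMT1 (0.98) and RTN4 (0.98) to LMNA, NIPSNAP3A (0.99) and GPX3 (0.98) to SUN2. For EMD these were B3GLCT (0.97) and SLC2A8 (0.97), and for SUN1 ADH4 and BMP2K (0.95 each).

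**Figure D4:**
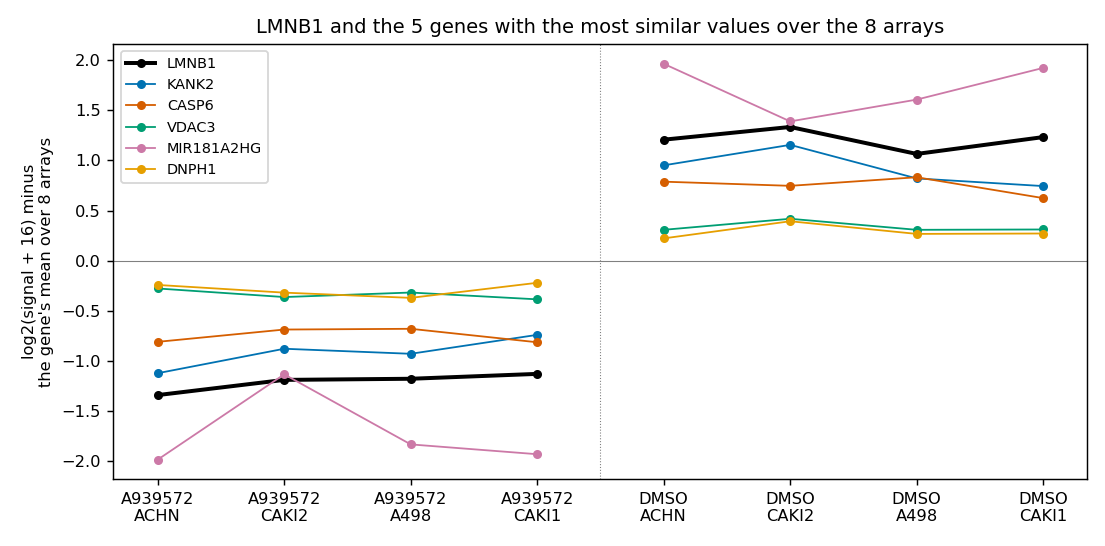
LMNB1 (black) and its 5 nearest genes by Pearson r over the 8 arrays, as log2(signal + 16) minus the gene's own mean, with the 4 treated arrays left of the 4 DMSO arrays. All 6 genes lie below their mean on every treated array and above it on every DMSO array, with the narrowest steps for VDAC3 and DNPH1. The genes were picked for their likeness to LMNB1 on these same arrays, so the shared split follows largely from that choice.

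Further genes of the envelope were taken from 7 lists, also written with earlier results of these data known. Of their 107 genes, 98 were tested, 4 lay below the filter and 5 were not analysed here. In the fit over all genes 11 rose and 30 fell, and 57 did not pass. Without A498, 7 were higher. With the cell line left out of the model 0 passed in limma, and 6 were higher and 15 lower at an unadjusted p under 0.05. The p-values rest on the spread between these lines, but limma draws each gene's variance towards that of other genes. They thus do not follow from the printed SD alone. Lower calls made up 30.6% of the 98, against 15.9% of all genes tested, and the median difference was -0.18. The higher 3′ to 5′ ratios of ACTB and, by less, of GAPDH on the treated arrays stood beside each of these changes.

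In the list of nesprins and other envelope membrane proteins, 11 of 15 genes tested did not pass. The list had 1 gene that rose and 3 that fell, or 26.7% called against 30.6% of all genes, with a median of -0.066, and without CAKI2 or CAKI1 2 were higher. SYNE1, the gene of nesprin-1, a partner of SUN proteins, rose by 1.99 ± 0.60 (limma adjusted p = 0.000472). All 4 lines were higher, by 1.34 (CAKI1) to 2.70 (CAKI2), while its next probe sets above the filter had 0.91 ± 0.42 and -0.08 ± 0.50. SYNE2, the nesprin-2 gene, had -0.44 ± 0.88 and did not pass (adjusted p = 0.279), and SYNE3 and SYNE4 lay below the filter. NRM, the gene of nurim, fell, with -1.09 ± 0.42 (adjusted p = 0.00213). LPIN1, a phosphatidate phosphatase gene, fell by 0.70 ± 0.23 (adjusted p = 0.0031) and had -0.62 and -0.57 in its other probe sets. TMEM201, an inner membrane protein gene, fell in the mean (-0.97 ± 0.72, adjusted p = 0.0188) with 0.02 in CAKI1. Its other probe set had -0.03 ± 0.40, and the call was lost without ACHN (adjusted p = 0.0789), CAKI2 (0.0631) or A498 (0.0607), and with the mean of its probe sets (0.110).

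Among 6 lamin processing enzymes 1 rose and 1 fell, or 33.3% called against 30.6% of all genes. The median was 0.13. ICMT, which methylates the farnesylated cysteine of prelamins and other CaaX proteins, fell by 1.58 ± 0.23 (limma adjusted p = 0.000198). The lines ran from -1.77 (A498) to -1.25 (CAKI1), and its next probe set had -1.12 ± 0.27. Both are of the _x_at or _s_at kind, which can match related transcripts, and its remaining probe set lay below the filter, with 0.52 ± 1.09. FNTA, the shared subunit of the prenyl transferases that add farnesyl or geranylgeranyl groups, rose by 0.52 ± 0.22 (adjusted p = 0.00882), a call lost with the mean of all its probe sets (0.188). That mean takes in a probe set below the filter (-0.21 ± 0.90), while the other above it had 0.48 ± 0.12.

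Chromatin tethers and factors of envelope reassembly had 5 of 13 lower and 0 higher, or 38.5% called against 30.6% of all genes. The median was -0.32. In limma at an unadjusted p under 0.05 the counts were 7 lower and 0 higher. CBX5, the gene of the LBR partner heterochromatin protein 1 alpha, fell by 0.90 ± 0.47 (adjusted p = 0.00516) and CBX1, its relative, by 0.67 ± 0.11 (adjusted p = 0.00144). The other CBX5 probe sets ran from -0.84 to -0.33. BANF1, which binds LEM domains and DNA, fell by 0.62 ± 0.30 (adjusted p = 0.0232), and VRK1, the kinase that acts on it, by 0.57 ± 0.22 (adjusted p = 0.0143). Both calls were lost without ACHN (0.0981 and 0.0703), which left 2 of the list lower, and that of BANF1 also without CAKI1 (0.0664) and without the filter on dim genes (0.0550).

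Nuclear pore genes had 4 of 31 higher and 8 lower, or 38.7% called against 30.6% of all genes. The median was -0.17. NDC1, a transmembrane nucleoporin, fell by 1.09 ± 0.49 (limma adjusted p = 0.00219) in its brightest probe set, with -0.36 ± 0.08 in the other. The inner ring genes NUP205 and NUP93 fell by 0.79 ± 0.40 (adjusted p = 0.00603) and 0.71 ± 0.16 (adjusted p = 0.00287), with -0.20 ± 0.28 in a dimmer NUP205 probe set. The NUP93 call was lost with the mean of its probe sets (adjusted p = 0.101), of which the dimmer lay below the filter, with -0.39 ± 1.32. NUP58, of the central channel, rose by 1.00 ± 0.52 (adjusted p = 0.00427) in the brightest probe set, but its others above the filter had -0.13 to 0.06, and the call was lost with the mean of all (0.250). The higher count was 1 without ACHN, CAKI2 or A498, and the lower count 5 without ACHN or CAKI2. With the mean of all probe sets they were 0 and 5.

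Nuclear transport genes had 2 of 16 higher and 6 lower, with a median of -0.22. Lower calls made up 37.5% of the list, against 15.9% of all genes tested, of which 14.7% were higher and 30.6% called either way. RANBP1, a cofactor of the Ran cycle, fell by 1.14 ± 0.27 (limma adjusted p = 0.000357), the importin alpha exporter CSE1L by 0.74 ± 0.20 (adjusted p = 0.00115) and the importin KPNA2 by 0.56 ± 0.25 (adjusted p = 0.0044). The other RANBP1 probe set above the filter had -0.59 ± 0.74, with 0.08 in A498, and the dimmest, below it, had -0.90 ± 0.37. All RANBP1 probe sets are of the _s_at or _x_at kind. The other CSE1L and KPNA2 probe sets were lower in every line. KPNA5, another importin alpha gene, rose by 1.27 ± 0.57 (adjusted p = 0.00238) and had 1.01 ± 0.33 and 0.48 ± 0.24 in its dimmer probe sets. Without ACHN, A498 or CAKI1 1 gene of this list was higher.

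Sterol enzymes that act next to the LBR step had 4 of 7 lower and 0 higher. This is 57.1% called, against 30.6% of all genes, and the median was -0.63. In limma at an unadjusted p under 0.05 the counts were 5 and 0. EBP, the sterol isomerase, fell by 1.66 ± 0.16 (adjusted p = 0.000107), DHCR7, a sterol reductase related to LBR, by 0.82 ± 0.29 (adjusted p = 0.00365), NSDHL by 0.74 ± 0.21 (adjusted p = 0.00333) and MSMO1 by 0.62 ± 0.33 (adjusted p = 0.00654). TM7SF2, the other sterol C14-reductase gene, was looked up after its value had been seen. It had -0.63 ± 0.64 and did not pass (adjusted p = 0.116).

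Senescence-associated transcripts other than LMNB1 had 3 of 10 higher and 3 lower, with a median of 0.32. Of all genes tested, 14.7% were higher, 15.9% lower and 30.6% either. The listed transcripts are not all known to change in the same direction in senescent cells. No senescence pattern is therefore read from this split or this median. Without the _s_at and _x_at probe sets 1 was higher, as CXCL8 and CDKN1A have only such probe sets and were not tested there. The cytokine genes CXCL8 and IL6 rose by 3.63 ± 0.38 (limma adjusted p = 3.86e-06) and 3.04 ± 0.72 (adjusted p = 0.000115), and the cell cycle inhibitor CDKN1A by 0.69 ± 0.16 (adjusted p = 0.00253). HMGB2, a chromatin protein known to decline in senescent cells, fell by 0.78 ± 0.19 (adjusted p = 0.000828), a call lost with the mean of its probe sets (0.0642). The dimmer HMGB2 probe set lay below the filter, with -0.25 ± 0.79. IGFBP7 and HMGB1, added after their values were seen, also passed as lower. They had -0.56 ± 0.35 (limma adjusted p = 0.0106) and -0.49 ± 0.22 (adjusted p = 0.00521). Both are among the 3 lower calls of the list, so nothing is read from that count. CDKN2A, singled out after its value was seen, had -0.05 ± 0.34 (adjusted p = 0.911). IGFBP3 (-0.16 ± 1.00), MMP1 (0.88 ± 1.10) and IL1A (1.99 ± 2.35) did not pass either. The DMSO means of MMP1 (6.19) and IL1A (5.73) lay below the filter.

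**Figure D5:**
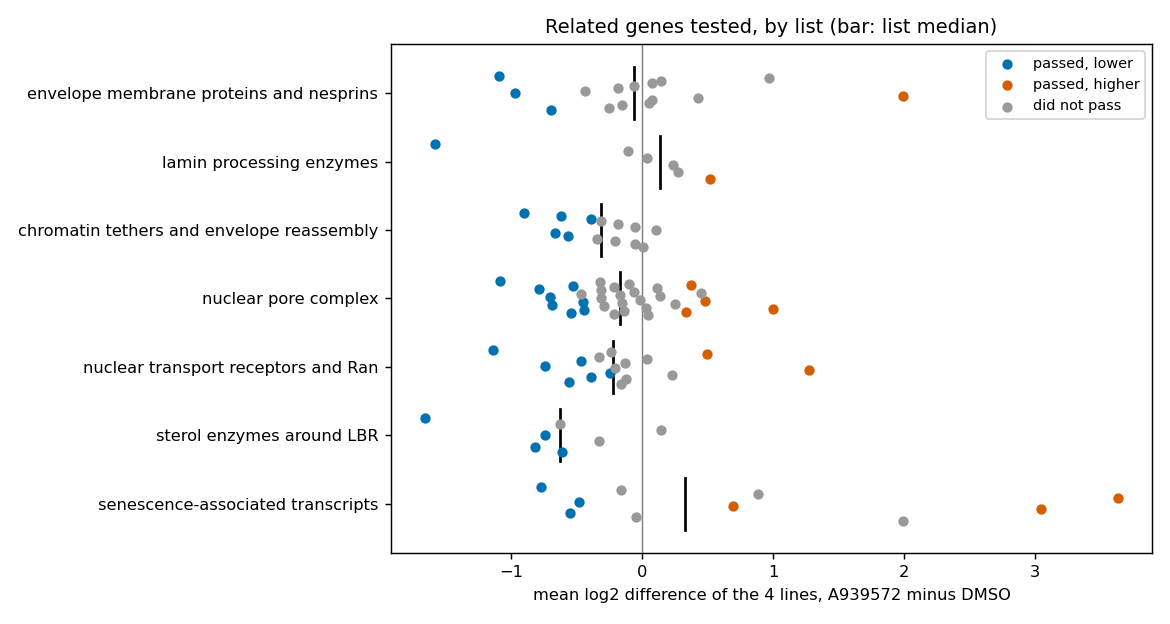
Mean log2 difference, A939572 minus DMSO, of the 98 related genes tested, by list, with the list median as a bar, genes past the threshold in blue (lower) or orange (higher) and the rest in grey. Sterol enzymes (4 of 7) and chromatin tethers (5 of 13) hold lower calls and no higher ones. Lower calls make up 57.1% and 38.5% of these lists, against 15.9% of all genes tested. SYNE1 (1.99) lies farthest right in the envelope membrane list.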

How the data were processed

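Per the labels, biotin-labelled cRNA of total RNA was hybridised to 8 arrays. The deposited intensity signals are linear, and their trimmed mean (2% left out at each end), computed here, was 500.1 on each array. How the authors summarized and scaled them is not given in the sources used here. Of 54675 probe sets 62 controls were left out, and 41091 had 1 symbol.

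Signals were taken as log2(signal + 16), which understates changes of dim genes, and quantile normalized. A gene was represented by its brightest probe set, and 12093 of 19775 genes at or above 6.41, the median probe set, were tested. limma 3.58.1 in R 4.3.3 (lmFit, eBayes with a trend, 2-sided, Benjamini-Hochberg at 0.05) had the cell line as a block. Pairing comes from the labels. Deviations from the group mean correlated at 0.818 to 0.864 for arrays of the same line, and at most at -0.03 for others. Taking off the mean of 4 lines pushes correlations between different lines below 0, so that contrast is partly built in. The number of arrays limits precision (median SE 0.17). An exact test of 4 pairs cannot go below p = 0.125. The fit was tested on simulated data. Where probe sets of a gene can match related transcripts, values are uncertain.

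Members and lists were chosen with earlier results of these data known. Named were all members, per list up to 4 genes past the threshold with the largest change, and each member's nearest genes by Pearson r (5 for LMNB1, 2 for others). Alternatives concerned the block, normalization, offset, filter, probe set choice, variance trend and single lines.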

Additional observations from a re-analysis of the deposited data

Results flagged for a closer look

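Among 50 sets of 4 values examined (levels in each group and differences of members, and differences of named related genes), 3 had 1 line far from the others by Dixon's ratio, and chance gives about 1 in 20. The EMD difference was -0.34 in CAKI2 and 0.09 to 0.11 in the other lines. The VRK1 difference was -0.89 in ACHN and -0.49 to -0.42 in the others. The CDKN1A difference was 0.94 in ACHN and 0.60 to 0.63 in the others.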

How the results depend on the processing

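Over the alternatives run, LMNB1, LMNB2, LBR, TMPO and SUN2 kept differences below 0, and LMNB1 ran from -2.48 to -2.27, TMPO from -1.28 to -1.13 and LBR from -1.07 to -0.93. LMNB2 has only an _s_at probe set and thus no value without the _s_at and _x_at probe sets. The block, the filter and the variance trend cannot change these mean differences. Nor can the mean of all probe sets for genes with a single one (LMNB1, LMNB2, LBR, EMD and SUN2). LMNB1 had its value nearest to 0 at offset 64 (-2.27). LMNA had -0.041 with the mean of all probe sets and ran from -0.15 to 0.46 with a line left out, EMD from -0.05 to 0.10, and SUN1 stayed above 0.

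Without the cell line as a block (no replicate block), limma called 38 genes higher and 29 lower in place of 1778 and 1928, 56 and 38 probe sets in place of 3545 and 3543, 1 member and 0 related genes higher or lower. At an unadjusted p under 0.05 that fit had 6 related genes higher and 15 lower, and all 26 named related genes lost their call. Related genes higher numbered 6 with the mean of all probe sets, 7 without the _s_at and _x_at probe sets, and 7 to 10 with a line left out, against 11. Lower probe sets numbered 2352 (without ACHN) to 2843 with a line left out. No named related gene tested under an alternative changed sign there, but 18 of the 26 were tested without the _s_at and _x_at probe sets and 24 with the filter at the upper quartile. Detection calls were not used here, so dim probe sets such as 237863_at have no stated floor.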
